A study of Mus musculus and Rattus norvegicus with 96 samples.

Results

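The 39 genes described here encode plasma proteins of the complement and coagulation systems that the liver makes. They were chosen by name, and a gene was kept where its mean over the 48 mouse liver libraries reached 1 CPM, the count of a gene scaled to a common library total. All 39 were found among the 24543 genes of the mouse liver table, and all 39 were kept and tested among 13370 genes.

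Complement is a chain of serum proteins that marks and lyses microbes. It starts from C1q bound to antibody (classical pathway), from mannose-binding lectins on sugars (lectin pathway) or from C3 turnover (alternative pathway), and the branches meet at C3 and end in a pore of late components. Coagulation is a chain of serine proteases that ends in thrombin and fibrin. Serpins and the protein C system restrain it, and plasmin dissolves the clot. Hepatocytes secrete most of these proteins. C1q is the main exception, since macrophages, which in liver are the Kupffer cells, are known as its source.

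Livers came from 12 male B6C3F1 mice of 10 to 11 weeks, which drank water alone (Con, 6 mice) or water with 600 ppm phenobarbital (PB, 6 mice) for 7 days. PB is a barbiturate that activates the receptor CAR in hepatocytes. Each liver was divided over 4 preparations: frozen (FR), placed directly in 10% neutral buffered formalin (NBF) and embedded in paraffin (FFPE), frozen and then placed in NBF and embedded (FR>FFPE), or frozen and then placed in 70% ethanol and embedded (FR>OH). Formalin fixation took 18 to 24 h. This gave 8 groups with 6 libraries each, and the same mice stand behind every preparation. RNA from FR tissue was extracted with RNAzol and that from embedded tissue with a kit for paraffin sections. Fragmentation by heat was also shortened for FFPE samples. In any comparison with FR, preparation thus cannot be told apart from extraction method and, where it differed, from fragmentation time.

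Ribosome-depleted total RNA was sequenced, and the count over genes ranged from 4952797 to 13702672 per library. Counts on genes made up 47.9% of reads in FR Con and 49.1% in FR PB, 24.6% and 25.5% in FFPE, 36.9% and 37.5% in FR>FFPE, then 37.4% and 40.0% in FR>OH (group means, n = 6). CPM is given per total count on genes, which sets these differences aside. The hepatocyte markers Alb, Apoa1, Ttr, Apoh, Tat, Cps1, Hnf4a and Asgr1 were detected in every group, summing to between 59403 and 91592 CPM in FR Con. Kupffer cell, endothelial, stellate cell and blood markers were present as well, so these are whole-liver values. Library titles carry a number with 5 values whose meaning the labels do not give, and it is called the title tag here. FR Con had tag 2 and FFPE Con tag 1 throughout, while FR>FFPE Con had tag 3 and FR>FFPE PB tag 4, so that tag and group are largely the same split.

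One Con mouse stood apart for these genes. Mouse 21C had the lowest level of the 6 Con mice in all 4 preparations for 16 of the 39 members and the highest for 3 (Klkb1, F5 and Proc), or 19 members in all, whereas no other mouse was at an edge of its group in all 4 for more than 9. Complement C5 (Hc), the first protein of the lytic pore, measured 1391 CPM in the FR library of 21C against 2080 to 2380 CPM in the other 5 Con mice, and 1171 against 1716 to 2044 CPM in FFPE. C4bp, an inhibitor of the classical pathway, measured 575 against 736 to 803 CPM in FR and 353 against 600 to 610 CPM in FR>FFPE. Factor V (F5), the cofactor of factor Xa, was high in 21C, at 1073 CPM against 897 to 960 CPM in FR. The share of all genes at an edge in all 4 preparations was not counted, so the place of 21C is not shown to be particular to the members. The values of 21C held across 4 separately prepared pieces of 1 liver. Each PB count that it touches is therefore given with and without this mouse.

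**Figure D1:**
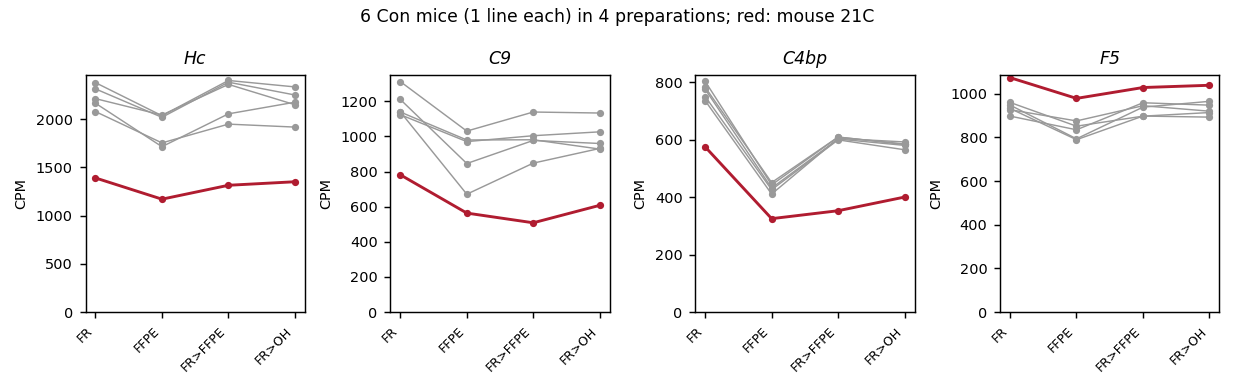
CPM of Hc, C9, C4bp and F5 (y axes, from 0) in the 4 preparations (x axes) of the 6 Con mice, 1 line per mouse, with mouse 21C in red. The red line lies below the other 5 mice in every preparation for Hc, C9 and C4bp and above them for F5.

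In frozen control liver the 39 members together took 3.52% of all counts (median of 6 libraries, range 2.90% to 3.76%). Per kilobase of transcript, C3, the protein on which all branches of complement meet, was the highest at 1654 ± 297 CPM per kb (SD, n = 6). Kng1, the kininogen precursor of bradykinin, followed at 1124 ± 103, and Plg, the precursor of plasmin, at 852 ± 52.6 CPM per kb. Antithrombin (Serpinc1) came next at 816 ± 58.8 CPM per kb, within 1 SD of Plg. At the other end stood Pros1, the protein S cofactor of protein C, at 28.0 ± 3.83 CPM per kb, then C1qc at 36.1 ± 8.21, factor VII (F7) at 36.5 ± 2.90 and C1qb at 37.2 ± 6.07 CPM per kb, of which the last 3 did not differ beyond their spread. The spread between mice differed among members. The coefficient of variation in FR Con was 1.66% for Hrg, a histidine-rich protein that binds plasminogen and heparin, and 22.7% for C1qc. C3 itself ranged from 6259 to 10183 CPM (median 8422) in FR Con and from 4921 to 13280 CPM (median 8666) in FR PB, so its level overlapped fully between treatments.

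The first question was how the members' levels in directly fixed tissue compared with those in frozen tissue of the same livers. In FFPE, 27 of 39 members were lower than in FR, 1 was higher and 11 were not called, where a call needs an adjusted p under 0.05 in Con and in PB mice with the same direction (edgeR quasi-likelihood test, adjusted by Benjamini-Hochberg over all 13370 genes). Over all genes tested 11.7% were called lower and 39.5% higher. Among the 5027 genes with a mean of at least 25 CPM, the range in which the members lie, 19.3% were lower and 48.1% higher. Within mice, 30 of 39 members were lower in 12 of 12, among them all 27. The 27 were called from these same libraries, so this adds no separate support. The share of all genes lower in every mouse was not counted, here or for the other preparations. The median log2 fold change of the members was −0.56 and that of all genes 0.32. A change of scaling shifts every gene of a comparison by nearly the same amount, so the distance between these medians could hardly change. With trimmed-mean (TMM) scaling they were −0.84 and 0.04, and per total read −1.52 and −0.63. Under TMM 35 members were lower and 0 higher, against 3000 and 3103 of all genes. Per total read 39 were lower and 0 higher, against 7913 and 446 of all genes.

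Serpinc1 encodes antithrombin, the serpin that inactivates thrombin and factor Xa, and with C1qa and Kng1 it had the lowest fold changes of the list, which lay within their SEs of each other. In FR Con it measured 1621, 1688 and 1921 CPM (lowest, median and highest of 6) and in FFPE Con 667, 717 and 793 CPM. In PB mice it measured 1609, 1774 and 1956 CPM in FR and 724, 804 and 844 CPM in FFPE. The groups did not overlap, and the log2 fold change was −1.21 (SE 0.05), with an adjusted p of 4.8e-18 in Con and 1.1e-17 in PB. The related serpin Serpind1, heparin cofactor II, fell by 0.74 on the log2 scale (SE 0.04).

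C1qa, a chain of the C1q recognition protein, measured 37.3, 48.5 and 59.5 CPM in FR Con and 15.7, 21.2 and 23.7 CPM in FFPE Con. In PB mice the values were 43.1, 58.4 and 83.8 CPM in FR and 19.4, 25.6 and 37.4 CPM in FFPE, so FFPE lay below FR without overlap in both treatments. The log2 fold change was −1.21 (SE 0.13), with adjusted p = 5.1e-07 in Con and 4.6e-07 in PB. The other chains, C1qb and C1qc, which lie beside C1qa on chromosome 4, fell by 0.97 (SE 0.14) and 0.95 (SE 0.16). Kupffer cell and macrophage markers fell beside them: 6 of 9 were called lower, 0 higher, and their summed level was 279 to 490 CPM in FR Con and 186 to 327 CPM in FFPE Con, with no marker at 0. Their part in the fall of C1q was not tested. In bulk tissue, fewer cells of a type and less RNA per cell cannot be told apart.

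Kng1 measured 1834, 2067 and 2264 CPM in FR Con and 775, 867 and 998 CPM in FFPE Con. In PB mice it measured 1572, 1906 and 2301 CPM against 725, 844 and 1025 CPM. Its fall was 1.19 on the log2 scale (SE 0.09), with adjusted p = 2.6e-11 in Con and 2.1e-10 in PB. A close paralog, Kng2, exists in the mouse, so the split of reads between the copies is uncertain. Factor B (Cfb), the protease of the alternative pathway convertase, went from 1002, 1469 and 1766 CPM in FR Con to 478, 729 and 799 CPM in FFPE Con, and from 956, 1249 and 1577 CPM in FR PB to 434, 641 and 777 CPM in FFPE PB. Its log2 fold change was −1.03 (SE 0.14). C1qb, Cpb2 and C1qc stood close behind Cfb, at a distance smaller than its SE.

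By role, 4 of 5 classical pathway genes fell, the exception being C4b at 0.29 (SE 0.11), which passed in PB mice alone. Of the lectin pathway, both lectins fell (Mbl1 by 0.90 and Mbl2 by 0.72), whereas the proteases were not called, with log2 fold changes of −0.04 for Masp1 and 0.02 for Masp2. Of 6 terminal components 4 fell, C8g by the most (0.90, SE 0.07), and Hc and C8a were not called. Within mice, Hc was lower in 12 of 12 and C8a in 1 of 12. The subunits of C8 thus took different values, since C8b fell by 0.73 and C8a stood at 0.07 (SE 0.09). All 3 complement inhibitors fell: C4bp by 0.82, Cfi, the protease that cuts C3b and C4b, by 0.77, and Serping1, the C1 inhibitor, by 0.61.

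In coagulation, 3 of 5 contact and intrinsic genes fell (Kng1, F12 by 0.45 and F9 by 0.23), and F11 and Klkb1, neighbours on chromosome 8, were not called. Of the extrinsic and common pathway, F13b, the carrier subunit of factor XIII, fell by 0.88 (SE 0.05), F10 by 0.69 (SE 0.07) and prothrombin (F2) by 0.67 (SE 0.04). F2 went from 1328, 1418 and 1525 CPM in FR Con to 815, 904 and 946 CPM in FFPE Con. F7 and F5 were not called, at −0.10 and −0.11. Of fibrinolysis, Plg fell by 0.38 (SE 0.07), from 2103, 2378 and 2515 CPM in FR Con to 1555, 1736 and 1816 CPM in FFPE Con. Cpb2, which strips plasmin binding sites from fibrin, fell by 0.96 (SE 0.19), and Hrg fell by 0.50. Serpinf2, the plasmin inhibitor, was not called at −0.19 (SE 0.06) but was lower in 12 of 12 mice. Of the 7 vitamin K-dependent proteins, 5 fell, F7 was not called and Proz rose.

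Proz, the protein Z cofactor for inhibition of factor Xa, was the one member called higher. It measured 241, 270 and 277 CPM in FR Con and 332, 342 and 356 CPM in FFPE Con, without overlap, and 277, 298 and 335 CPM in FR PB and 327, 379 and 410 CPM in FFPE PB. The log2 fold change was 0.35 (SE 0.04), close to the median of 0.32 over all genes, so that Proz moved little against the rest of the library. It was not called higher under TMM scaling and became −0.60 per total read. C3 was lower in 12 of 12 mice but not called, at −0.36 (SE 0.21).

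**Figure D2:**
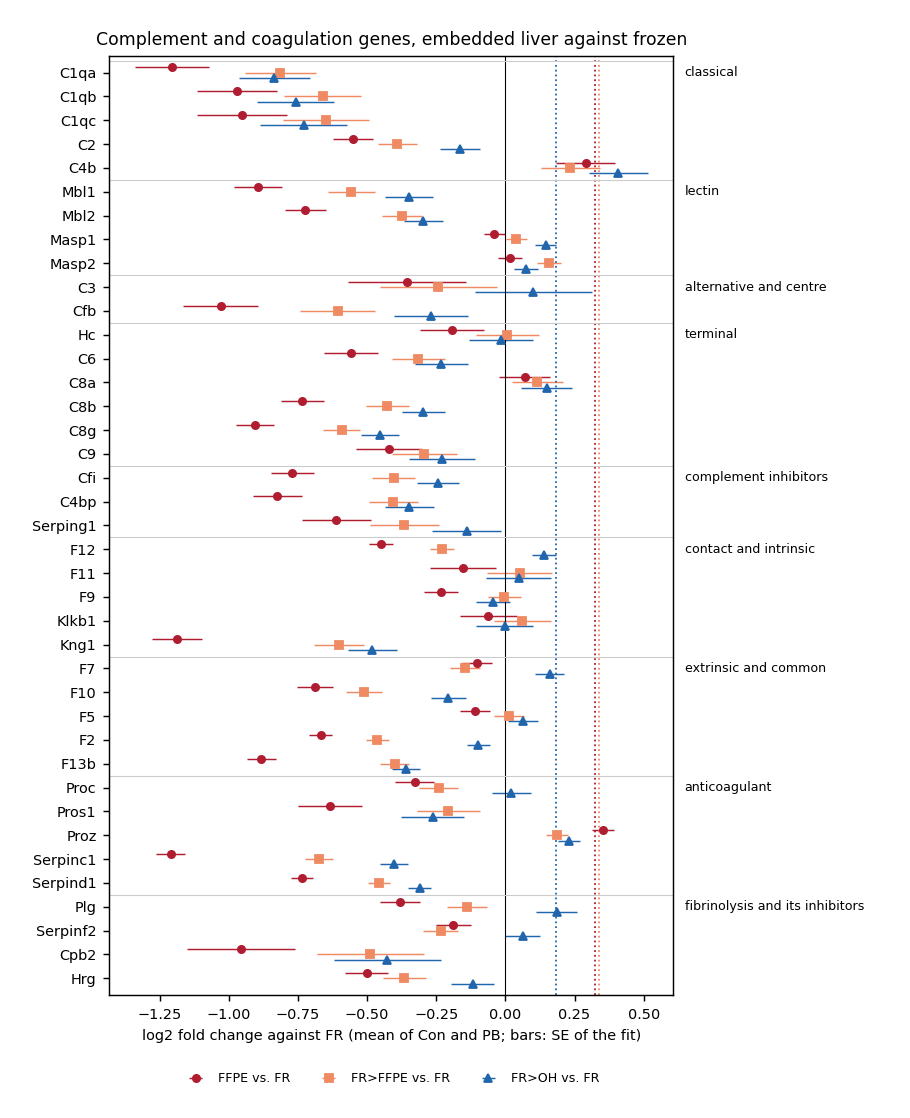
log2 fold change against FR (x axis; mean of Con and PB, bars are SE of the fit) of the 39 members by role (y axis) in FFPE, FR>FFPE and FR>OH. Dotted lines mark the median of all genes in the same colours (0.32, 0.34 and 0.18), and most members lie to the left of them, FFPE furthest.

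**Figure D3:**
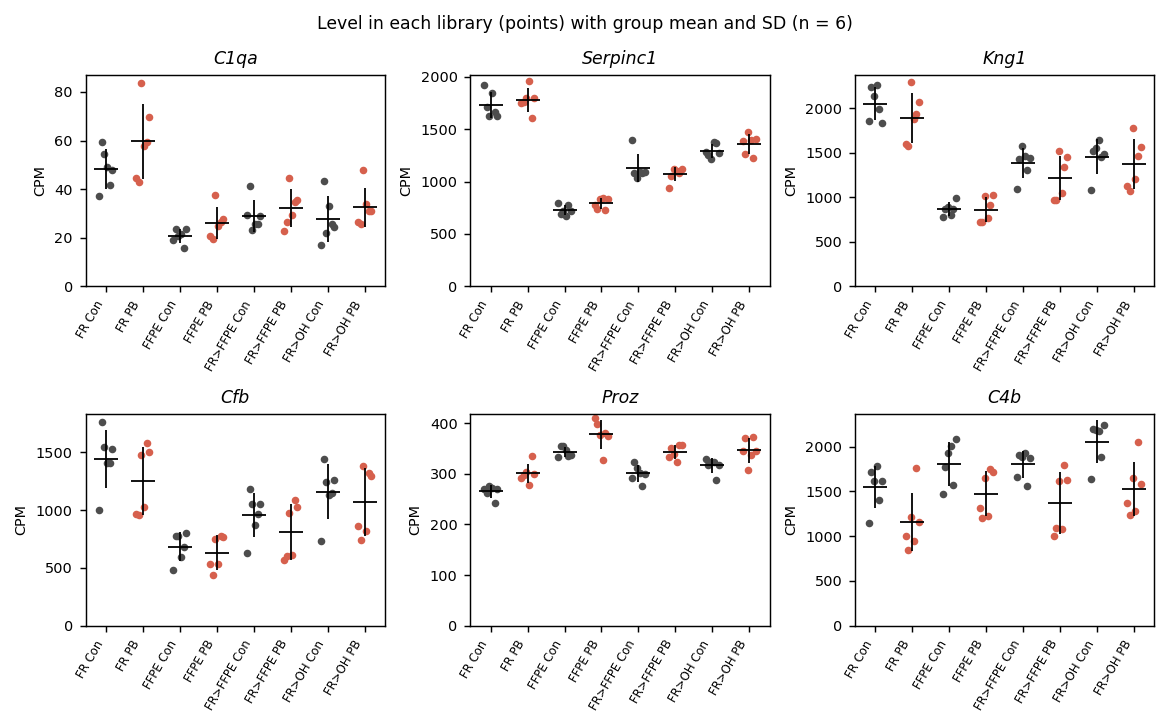
CPM (y axes, from 0) of 6 members in each of the 48 libraries by group (x axes), grey for Con and red for PB, with group mean and SD (n = 6). C1qa, Serpinc1, Kng1 and Cfb are lowest in FFPE, and Proz is highest there.

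In Con mice the title tag and the preparation are the same split for FFPE and FR. A fit with the tag thus draws on PB libraries alone for it and cannot separate tag from preparation in Con. With the tag as a term in the fit, 14 of the 27 members stayed lower and 1 was higher, while the median went from −0.56 to −0.44 for the members and from 0.32 to 0.34 for all genes. Over all genes the lower calls went from 1567 to 818. Under the other settings tried without a fold criterion, all 27 stayed called. With the mouse as a block 31 members were lower and 2 higher, against 1929 and 6013 of all genes. With the criterion of a 2-fold change added, 3 members, Serpinc1, C1qa and Kng1, were lower.

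Members with shorter transcripts fell further. In the 13 shortest by transcript length (922 to 1856 bases) the median log2 fold change was −0.90 and 12 genes fell. In the middle 13 it was −0.69 and 10 fell. In the 13 longest (2734 to 7430 bases) it was −0.19 and 5 fell, among them Cfb, Plg and Pros1. Across the 39 genes Spearman's rho of change with length was 0.61, 0.66 and 0.60 for FFPE, FR>FFPE and FR>OH. Over the 13076 tested genes with a length it was 0.42, 0.45 and 0.33. All 3 values share the FR libraries, and genes are not independent replicates, so they are descriptions.

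Of 53 other genes of these systems, 50 were tested in FFPE, and 18 were lower and 5 higher. The 3 fibrinogen chains fell (Fgg by 1.29, Fgb by 1.15 and Fga by 0.91), as did Fcna, a ficolin of macrophages, by 1.25 (SE 0.11), and Vtn, the vitronectin that blocks the lytic pore, by 1.19 (SE 0.10). Hpn, a membrane protease of hepatocytes, rose by 0.74 (SE 0.05), and C1s2, C1rb, Cd55 and C4a were called higher. Hepatocyte markers outside the list moved in the same way as the members: 6 of 8 were lower, Alb by 1.23 and Apoh by 1.40, while Hnf4a was higher by 0.78. Their summed level went from 59403 to 91592 CPM in FR Con to 27989 to 39968 CPM in FFPE Con. Blood markers (3 of 5 lower) moved as well. The part of these shifts in the members' values was not tested.

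Freezing before formalin gave smaller differences from FR. In FR>FFPE, 20 of 39 members were lower than in FR and 2 higher, against 4.94% and 38.7% of all genes, or 9.39% and 50.8% of genes of at least 25 CPM. The median was −0.37 for the members and 0.34 for all genes. Of the 20, F12 was lower in 11 of 12 mice and each of the others in 12 of 12. With the mouse as a block, 28 were lower and 3 higher, against 1058 and 6352 of all genes.

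C1qa fell by 0.81 (SE 0.13), from 37.3, 48.5 and 59.5 CPM in FR Con to 23.4, 27.2 and 41.3 CPM in FR>FFPE Con, and from 43.1, 58.4 and 83.8 CPM to 22.6, 32.1 and 44.5 CPM in PB mice. The ranges overlapped in both treatments. C1qb fell by 0.66 and C1qc by 0.65, while 2 of 9 Kupffer cell markers were called lower. Serpinc1 fell by 0.67 (SE 0.05), to 1034, 1087 and 1400 CPM in Con and 941, 1089 and 1124 CPM in PB, which did not overlap FR. The highest of these is mouse 21C, whose FR>FFPE library had the lowest depth of its group. Without that library 21 members were lower and 2 higher, against 636 and 5010 of all genes.

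Classical genes kept 4 falls of 5, the lectins both fell, and terminal components had 2 (C8b and C8g). F2 fell by 0.46 (SE 0.04) to 1019, 1051 and 1086 CPM in Con, and F10 by 0.51. Plg at −0.14 (SE 0.07), C3 at −0.24 (SE 0.21) and C4b at 0.23 (SE 0.11) were not called in the fit without the mouse. Within mice, Plg and C3 were lower and C4b was higher in 12 of 12. Proz was higher by 0.19 (SE 0.04) and Masp2, the protease that cuts C4 and C2 in the lectin pathway, by 0.16 (SE 0.04). Both became negative under TMM scaling, at −0.12 and −0.15, so their direction depends on the scaling.

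After ethanol in place of formalin, 10 members were lower than in FR and 2 higher, against 6.02% and 25.8% of all genes (9.69% and 36.7% of genes of at least 25 CPM). The median was −0.17 for the members and 0.18 for all genes. Under TMM scaling 16 were lower and 0 higher, so that the share of lower calls moved from 83.3% to 100%. Over all genes 1923 were lower and 1984 higher under TMM. With the mouse as a block, 21 were lower and 6 higher, against 1359 and 4506 of all genes.

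The C1q chains had the lowest log2 fold changes here. C1qa fell by 0.84 (SE 0.13), to 16.9, 25.0 and 43.4 CPM in FR>OH Con and 25.5, 31.1 and 47.8 CPM in FR>OH PB, with overlap. C1qb fell by 0.76 and C1qc by 0.73. Macrophage markers (5 of 9 lower; 162 to 411 CPM in FR>OH Con) and endothelial markers (6 of 8 lower, against 0 of 8 in FFPE) were lower in FR>OH too, and their part was not tested. Kng1 fell by 0.48 (SE 0.09) to 1082, 1504 and 1640 CPM in Con, and Serpinc1 by 0.40 (SE 0.05) to 1213, 1276 and 1375 CPM.

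None of the 3 complement inhibitors and none of the 4 genes of fibrinolysis was called in FR>OH in the fit without the mouse. Within mice, however, C4bp (−0.35, SE 0.09), Cfi (−0.24, SE 0.08), Serping1 (−0.14, SE 0.13) and Cpb2 (−0.43, SE 0.19) were lower and Plg was higher in 12 of 12. F2 at −0.10 (SE 0.04), Plg at 0.18 (SE 0.07) and C3 at 0.10 (SE 0.21) were not called either. C4b, the fourth complement component, was higher by 0.41 (SE 0.11), from 1144, 1616 and 1785 CPM in FR Con to 1644, 2182 and 2245 CPM in FR>OH Con, in 12 of 12 mice. C4b has a near-identical copy, C4a, so reads may be split between them. Proz was higher by 0.23 (SE 0.04). Under TMM scaling neither was called.

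A further question was whether freezing before formalin alters the result, which sets FFPE against FR>FFPE, with embedding, kit and fixative shared. In FFPE 7 members were lower and 0 higher, against 5.7% and 2.48% of all genes (11.1% and 4.65% of genes of at least 25 CPM). At an unadjusted p under 0.05 in Con and in PB mice, 15 members passed in either direction, where 16.5% of all genes and 27.7% of genes of at least 25 CPM did. The median was −0.23 for the members and −0.02 for all genes. Kng1 was lower by 0.59 (SE 0.09), Serpinc1 by 0.54 (SE 0.05), F13b by 0.48 (SE 0.05) and C4bp by 0.42 (SE 0.09), and Mbl2, Cfi and Serpind1 completed the list. Serpinc1 measured 667, 717 and 793 CPM in FFPE Con and 1034, 1087 and 1400 CPM in FR>FFPE Con, and the ranges did not overlap.

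With the mouse as a block, 26 members were lower and 1 higher, against 1617 and 997 of all genes. Without the shallow FR>FFPE library of mouse 21C 10 were lower and 0 higher, against 883 and 449 of all genes. Under TMM scaling 3 were lower and 1, Proz, was higher, so that the share of lower calls went from 100% to 75.0%. Over all genes 713 were lower and 541 higher under TMM. The C1q chains, at −0.39, −0.31 and −0.30, were not called. A title tag term cannot be fitted over all 8 groups, since FR>FFPE PB and the FR>OH groups share no tag with the others. FR>OH against FR, and FR>FFPE PB against FR or FFPE, thus cannot be told apart from the tag. Within FR>FFPE, tag and treatment are the same split. For other comparisons with FR>FFPE or FR>OH, a fit with the tag was not made.

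Phenobarbital changed few members, and by less than 2-fold. In FR, 6 members were higher in PB than in Con mice and 2 lower, against 5.86% and 2.6% of all genes and 9.09% and 4.77% of genes of at least 25 CPM. In FFPE 5 were higher and 2 lower (4.64% and 1.98% of all genes, 6.23% and 3.6% at that level). FR>FFPE had 6 and 2 (6.24% and 0.987%, or 9.63% and 1.81%), and FR>OH had 5 and 2 (8.43% and 3.77%, or 12.8% and 6.6%). The counts in FR>OH are thus close to the share of other genes at this level. The 4 preparations share the same 12 mice, so they repeat the measurement and not the animals. F10, F7, Serpind1, Masp1 and F13b were higher in all 4, and C9 was lower in all 4. In FR 19 members lay above 0 and 20 below it, in FFPE 22 and 17, and in FR>OH 21 and 18. In FR>FFPE 16 lay above and 23 below, with a median of −0.05 for the members and 0.06 for all genes, which became −0.08 and 0.08 without mouse 21C.

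F10, the protease that turns prothrombin into thrombin, had the highest fold change in FR, followed by F7. It measured 390, 418 and 433 CPM in FR Con and 518, 561 and 649 CPM in FR PB, and the groups did not overlap. The log2 fold change was 0.47 (SE 0.09, adjusted p = 0.000386). In FFPE the values were 249, 253 and 260 CPM in Con and 316, 359 and 410 CPM in PB (0.51, SE 0.09), and in FR>OH 319, 362 and 387 CPM against 395, 486 and 584 CPM (0.47, SE 0.09), again without overlap. In FR>FFPE Con at 277, 295 and 323 CPM overlapped PB at 307, 379 and 485 CPM (0.38, SE 0.09).

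F7 encodes factor VII, which starts coagulation with tissue factor. It measured 62.6, 66.3 and 75.3 CPM in FR Con and 74.1, 89.3 and 98.7 CPM in FR PB, with an overlap, and 58.7, 63.4 and 65.8 against 72.5, 82.2 and 90.7 CPM in FFPE, without one. Its log2 fold changes were 0.37, 0.38, 0.30 and 0.32 in FR, FFPE, FR>FFPE and FR>OH (SE 0.08 in each). Proz was called higher in FR (0.18, SE 0.06) and FR>FFPE (0.19, SE 0.06), and measured 0.14 in FFPE and 0.13 in FR>OH, where it was not called.

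These 3 genes lie side by side on the plus strand of chromosome 8 (GRCm38): F7 at chr8:13026034-13035806, F10 at chr8:13037308-13056677 and Proz at chr8:13060908-13075007. The gaps between them measure 1.502 and 4.231 kb. The nearest genes on either side, Mcf2l and Pcid2, and beyond them Atp11a, Cul4a and Lamp1, were not called for PB in any preparation. In FR their log2 fold changes were 0.13 for Mcf2l (at only 1.38 CPM), −0.10 for Pcid2 (10.5 CPM), −0.48 for Atp11a, −0.02 for Cul4a and 0.12 for Lamp1. The 250 bases before each start, from the RefSeq promoter table of GRCm38.p6, are shown because these neighbours moved in one direction, with C9, which moved in the other. Each is read 5′ to 3′ on the gene's strand, and capitals mark a match to one of the motifs named after them.
F7, chr8:13025784-13026033, plus strand: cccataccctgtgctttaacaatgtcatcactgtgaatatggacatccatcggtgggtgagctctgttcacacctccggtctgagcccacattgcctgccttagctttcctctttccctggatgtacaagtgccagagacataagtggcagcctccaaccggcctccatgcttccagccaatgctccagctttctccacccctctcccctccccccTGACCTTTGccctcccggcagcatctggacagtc
F10, chr8:13037058-13037307, plus strand: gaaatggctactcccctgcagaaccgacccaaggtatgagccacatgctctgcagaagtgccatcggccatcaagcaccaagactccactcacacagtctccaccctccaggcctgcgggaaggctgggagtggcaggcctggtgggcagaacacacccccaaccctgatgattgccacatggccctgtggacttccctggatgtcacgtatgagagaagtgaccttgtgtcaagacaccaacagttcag
Proz, chr8:13060658-13060907, plus strand: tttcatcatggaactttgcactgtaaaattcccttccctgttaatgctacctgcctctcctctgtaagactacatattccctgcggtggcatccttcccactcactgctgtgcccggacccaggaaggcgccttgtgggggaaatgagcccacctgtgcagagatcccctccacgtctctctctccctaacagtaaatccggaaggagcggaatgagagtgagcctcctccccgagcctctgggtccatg
C9, chr15:6445096-6445345, plus strand: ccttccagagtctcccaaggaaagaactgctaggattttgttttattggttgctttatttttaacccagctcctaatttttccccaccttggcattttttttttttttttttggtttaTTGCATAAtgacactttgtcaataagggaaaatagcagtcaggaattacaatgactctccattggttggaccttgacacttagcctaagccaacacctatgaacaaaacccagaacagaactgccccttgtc

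Motifs of liver-enriched factors were searched on both strands of these windows, for the 29 members with an entry. The HNF4 motif CAAAGNNCA was in 3 members (C8g, F9 and F7) and in 5.49% of all 32851 promoters. In F7 the match begins 34 bases before the start. The HNF1 motif was in 3 members (Hc, C4bp and F13b) and 0.371% of all. The C/EBP motif TTGCNNAA was in 6 members (C3, C9, F11, F9, Klkb1 and Hrg) and 9.56% of all, and in C9 it begins 132 bases before the start. A TATA motif, TATAAA, was in 2 members (Hc and Klkb1) and 12.4% of all. The F10 and Proz windows hold none of these letters. A match is a description of sequence.

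Serpind1, heparin cofactor II, measured 614, 670 and 693 CPM in FR Con and 785, 813 and 854 CPM in FR PB. It rose by 0.30 (SE 0.06, adjusted p = 0.000313) in FR and by 0.39, 0.28 and 0.37 after FFPE, FR>FFPE and FR>OH preparation, and PB lay above Con without overlap in all 4. Masp1, a protease of the lectin pathway, was the other member with no overlap in any preparation. It measured 121, 125 and 129 CPM in FR Con and 141, 147 and 167 CPM in FR PB, with log2 fold changes of 0.27, 0.30, 0.30 and 0.35 (SE 0.05). F13b rose by 0.24, 0.28, 0.23 and 0.34 (SE 0.07), from 154, 165 and 195 CPM in FR Con to 185, 200 and 229 CPM in FR PB, with an overlap there.

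C9, which polymerises into the lytic pore, was the member lowered in every preparation. It measured 781, 1139 and 1312 CPM in FR Con and 561, 723 and 947 CPM in FR PB. In FFPE the values were 563, 908 and 1030 CPM in Con and 418, 556 and 659 CPM in PB. The groups overlapped in all 4 preparations. The log2 fold changes were −0.58, −0.62, −0.58 and −0.52 (SE 0.17), with adjusted p = 0.0187, 0.0161, 0.0234 and 0.0346. The lowest Con value is that of mouse 21C, and without this mouse the fall in FR was −0.67 (SE 0.14, adjusted p = 0.000788). In a limma fit of the log2 values C9 was not called in any preparation.

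The remaining falls were each called in part of the preparations. F5 was lower in FR, at 897, 940 and 1073 CPM in Con and 656, 831 and 895 CPM in PB without overlap (−0.28, SE 0.08). It measured −0.18, −0.22 and −0.13 in FFPE, FR>FFPE and FR>OH, where it was not called. Mbl1 was lower in FFPE (−0.40, SE 0.12) and FR>FFPE (−0.43, SE 0.12). F12 was lower in FR>OH (−0.20, SE 0.06). The difference in PB response between an embedded preparation and FR was tested for all genes as an interaction, and 0 of 13370 genes (0%) were called in each of the 3 tests. No member reached an unadjusted p under 0.05 there, the lowest being 0.26 for Serpind1 in FFPE, 0.107 for C8g in FR>FFPE and 0.155 for F5 in FR>OH. Of all genes, 3.46%, 2.15% and 2.28% did in these tests. The fit leaves out the pairing by mouse, so a difference within mice may be missed. A response called in 1 preparation only is therefore not shown to differ from the others.

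C3 (0.06, SE 0.30), F2 (−0.01, SE 0.06), Plg (−0.02, SE 0.10) and Serpinc1 (0.04, SE 0.07) were not called for PB in FR, and the SE of C3 leaves room for changes in either direction. The C1q chains measured 0.31, 0.26 and 0.30 (SE 0.18 to 0.22) in FR and were not called, and neither was any of the 9 Kupffer cell markers. C4b was at −0.42 (SE 0.15, adjusted p = 0.0746) in FR and below 0 in the other preparations, uncalled in each, while its copy C4a was called lower in all 4, by 1.37 (SE 0.32) in FR. With reads possibly shared between the copies, the split is uncertain. Of the 50 other genes tested, Lman1, the receptor that carries factors V and VIII out of the endoplasmic reticulum, rose in all 4 preparations (0.29, SE 0.06 in FR), and Hgfac, the protease that activates hepatocyte growth factor, fell in all 4 (−0.26, SE 0.08 in FR). Ggcx, the vitamin K-dependent carboxylase, was called higher in FR>OH only (0.26, SE 0.07).

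**Figure D4:**
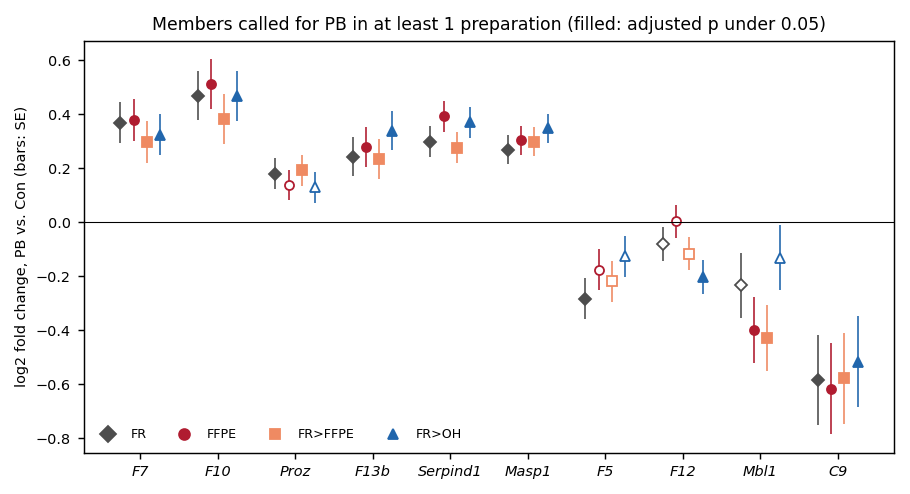
log2 fold change of PB against Con (y axis, bars are SE of the fit) for the 10 members called in at least 1 of the 4 preparations (x axis), with filled symbols where called. F7, F10, F13b, Serpind1 and Masp1 lie above 0 and C9 below 0 in all 4 preparations.

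**Figure D5:**
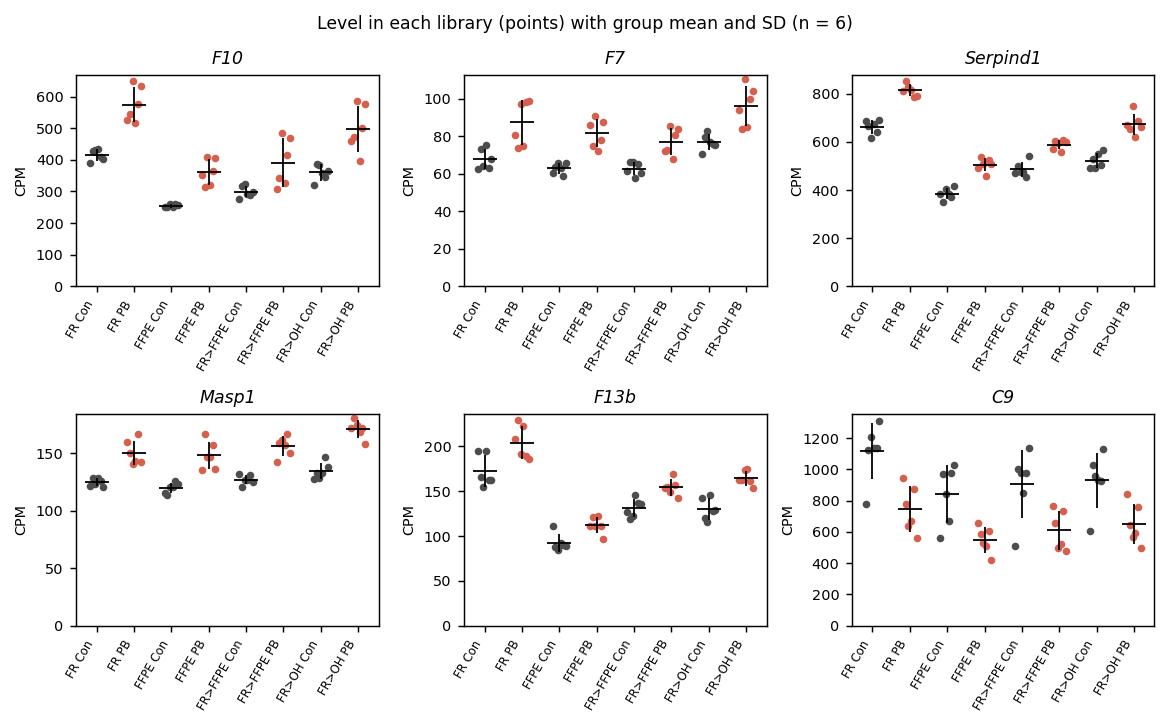
CPM (y axes, from 0) of 6 members in each library by group (x axes), grey for Con and red for PB, with group mean and SD (n = 6). PB libraries of Serpind1 and Masp1 lie above all Con libraries of the same preparation, and those of C9 overlap them.

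Scaling, the title tag and mouse 21C touch these calls. With the tag as a term, 0 members were called in FR, where F10 measured 0.37 (SE 0.10) and an adjusted p of 0.0539, Masp1 0.31 (adjusted p = 0.0584) and Serpind1 0.33 (adjusted p = 0.0568), while in FFPE the 5 rises remained and 1 fall was called. Over all genes, with the tag, 238 were higher and 57 lower in FR, and 413 and 147 in FFPE. In FR>FFPE only Masp1 was called higher under TMM scaling, with 3 lower, so that the share of lower calls moved from 25.0% to 75.0%. Over all genes 485 were higher and 291 lower there. Per total read, FR>OH had 8 higher and 0 lower (28.6% to 0%), against 1704 and 247 of all genes. FFPE had 5 higher and 1 lower (28.6% to 16.7%), against 665 and 131 of all genes. Without mouse 21C, 6 members were higher and 4 lower in FR, with 5 and 2 in FFPE, 5 and 2 in FR>FFPE, then 5 and 3 in FR>OH. Over all genes these counts were 796 and 322, 649 and 240, 734 and 113, then 1074 and 392.

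The same genes were measured in other tissues with TempO-Seq, a targeted assay that counts ligated probe pairs. In liver of F344 rats, all labelled vehicle control, 28 members passed the count filter in 18 libraries (6 FR, 6 FR>FFPE and 6 FFPE). FFPE libraries were shallow, at 139475 to 889128 counts against 3040915 to 3970187 in FR. With TMM scaling 26 of 28 members were called in FFPE against FR, 5 higher and 21 lower. Of 2279 genes 79.7% were called, 1053 higher and 764 lower. In FR>FFPE 21 were called, 6 higher and 15 lower, against 71.4% of genes, with 997 higher and 630 lower. Most genes of the panel moved, and the members' counts are to be read against that. Per total count, 11 members were higher and 6 lower in FFPE, against 1764 and 158 of all genes. In FR>FFPE 13 were higher and 11 lower, against 1464 and 269 of all genes. The median of all genes moved from 0.35 to 1.97 in FFPE and from 0.37 to 1.08 in FR>FFPE. The median of the members moved from −1.46 to 0.15 in FFPE and from −0.59 to 0.15 in FR>FFPE. Directions in rat liver thus depend on scaling, while the members' median lay below that of all genes under both. Scaling shifts all genes nearly alike, so this order could hardly change.

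Rat Serpinc1 was lower under both scalings. It measured 3224, 4723 and 5102 CPM in FR and 889, 1346 and 1534 CPM in FFPE, without overlap, with a log2 fold change of −3.42 (SE 0.24) under TMM and −1.84 (SE 0.14) per total count. Serpind1 was at −3.01 and −1.42 in FFPE, Cfi at −3.12 and −1.52, Serping1 at −2.52 and −0.97, C9 at −2.37 and −0.75 and F5 at −1.97 and −0.37. Those 6 genes made up all members lower in FFPE under both scalings. The C1q chains did not move as one in rat FFPE liver. C1qa measured 1.92, 3.75 and 4.45 CPM in FR (6 to 17 counts) and 31.5, 62.3 and 105 CPM in FFPE (12 to 32 counts), at 2.61 under TMM. Under the same scaling C1qb was not called at −0.12 (SE 0.28) and C1qc was lower by 0.54 (SE 0.20, edgeR adjusted p = 0.0152). Per total count all 3 were higher, at 4.25, 1.57 and 1.07. C3 was at −1.78 and −0.20, F2 at −1.73 and −0.13, and Plg at −1.99 and −0.36, the latter of each pair not called.

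In lung of WKY rats, also labelled vehicle control, the members differed widely in level in FR, over 6 libraries of which 1 held 12 counts in all. Of 28 members with a count, 18 had a median under 10 CPM, as Serpinc1 at 0.703 CPM, F2 at 8.19 CPM and C9 at 8.06 CPM. Another 7 were at 100 CPM or more: C3 at 1186, Pros1 at 318, Serping1 at 297, C1qc at 245, Cfi at 214, C2 at 172 and F5 at 133 CPM. The medians of Pros1, C2, the C1q chains and C4b (under 1 CPM in both) were above those in FR rat liver (269 CPM for Pros1 and 107 CPM for C2 there), which stand in a separate table and were not tested against lung. In FR>FFPE lung the medians of Serpinc1 and F2 were 66.5 and 120 CPM, above those in FR. AML12, a mouse hepatocyte line made from a mouse with a transforming growth factor alpha transgene, had counts for 19 members, and the other 20 were at 0 in every library. Whether the panel holds probes for those 20 was not tested, so their zeros are not read as lack of expression. Vehicle cultures were given phosphate buffered saline for 10 min. After 10 min in 0.1% NBF, 3 members passed the filter and 1 was called, against 19.3% of 1570 genes. Pros1 measured 1.87, 3.44 and 4.87 CPM (1 to 9 counts) in 3 vehicle cultures and 13.3, 21.3 and 31.6 CPM (29 to 49 counts) in 3 treated ones, a log2 fold change of 2.31 (SE 0.49, adjusted p = 0.0036). C3 at 0.81 (SE 0.45) and Serpind1 at −0.37 (SE 0.26) were not called.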

How the data were processed

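Mouse liver libraries were stranded and rRNA-depleted. Per the labels and methods, the authors converted base calls with CASAVA 1.8.2, aligned reads with STAR 2.5.3a to GRCm38 (mm10) and deposited estimated counts per RefSeq gene from an expectation-maximization step in Partek Flow, together with a log2 CPM table. Of the deposited estimated counts 95.1% were whole, and all were rounded here. Which software made the TempO-Seq gene counts is not given in the sources used here. Rows without a gene name (0.000643% of the deposited counts in rat liver, 0.000916% in rat lung and 0% in AML12) were left out.

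Genes with a geometric mean above 1 count (13370) were tested with edgeR 4.0.16 (R 4.3.3) in one quasi-likelihood fit over the 8 groups, with the total count over these genes as library size and no further scaling. P-values were adjusted by Benjamini-Hochberg over all genes. A preparation was called at an adjusted p under 0.05 in Con and in PB mice with one direction, a PB effect at an adjusted p under 0.05, and the SE is the log2 fold change divided by the square root of F. TempO-Seq counts were tested with edgeR, TMM scaling and filterByExpr. CPM is per total count on genes. Transcript lengths are those of the GENCODE principal transcript inside the deposited gene span. The fit was also run on simulated counts. These had independent libraries and as many rises as falls, so that run does not bear on pairing by mouse or on one-sided change. Alternatives were TMM, total reads as implied by the log2 table, DESeq2 1.42.0, limma 3.58.1 on the deposited log2 values, other filters, the title tag, the mouse as a block, libraries left out, and a 2-fold criterion. Leaving out mouse 21C and, in TempO-Seq, scaling by total counts were chosen after the data were seen.

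Preparations are paired, since each mouse gave 4. Deviations from the group means over 7953 genes of at least 10 CPM correlated above 0.1 in 72 of 72 same-mouse pairs (median 0.70), with a median of −0.13 between different mice. PB and Con mice are different animals, so a block by mouse cannot be used for PB effects. The PB p-values come from the shared fit over all groups, which treats the 4 libraries of a mouse as independent. The spread behind these p-values was thus estimated from libraries that are correlated within mice. How far this changes the PB calls was not tested. No 2 replicates agreed within sampling noise. Nothing says that rat or AML12 libraries of a group are more than separate samples, so their p-values measure the spread between these samples.

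In each comparison the 4 largest called rises and falls were named, with C1qa, C1qb, C1qc, C3, C4b, F2, Plg, Serpinc1 and the 3 highest and 3 lowest members per kb. Other genes are described by role. The members, roles, marker lists and motifs were chosen with earlier results of these data known.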

Additional observations from a re-analysis of the deposited data

Results flagged for a closer look

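For each of the 39 members, the lowest and highest library of each of the 8 mouse liver groups (312 groups of 6) were compared with the rest of their group, and a library was listed where its gap to the nearest other library took more of the group's range than Dixon's critical value for 6 libraries allows. Chance lists about 1 in 20 groups where these are independent, and 27 were found. The groups share mice across genes and preparations, so the 27 are not tested against that rate. The mouse 21C gave 21 of the 27. C4bp was low in its libraries in all 4 Con groups: 575 CPM in FR against 736 to 803, 325 in FFPE against 411 to 451, 353 in FR>FFPE against 600 to 610, and 401 in FR>OH against 565 to 593 CPM. Low values of 21C were also Hc in FR (1390 against 2080 to 2380 CPM), C6 in FR (381 against 487 to 546), C9 in FR (781 against 1120 to 1310), C8a in FR>FFPE (963 against 1420 to 1650), Cfi in FR>FFPE (298 against 440 to 499), F9 in FR>FFPE (141 against 215 to 235), Serping1 in FR>OH (597 against 825 to 915), Hrg in FR>OH (659 against 723 to 761), Plg in FR>OH (2120 against 2590 to 2780), Kng1 in FR>OH (1080 against 1460 to 1640) and Pros1 in FR>FFPE (53.3 against 83.3 to 89.5). High values of 21C were Klkb1 in FR (512 against 357 to 414 CPM) and FFPE (490 against 343 to 394), F5 in FR (1070 against 897 to 960), Serpinc1 in FR>FFPE (1400 against 1030 to 1090), F13b in FFPE (111 against 83.9 to 92.5) and F12 in FR>FFPE (258 against 219 to 232).

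In the other mice, C1qa was high in the FR>FFPE Con library of mouse 82B (41.3 against 23.4 to 29.3 CPM). C1qa and C1qb were both high in the FR>OH PB library of mouse 20B (47.8 against 25.5 to 33.8 CPM and 43.5 against 21.4 to 29.6 CPM). Proz was low in the FR>OH Con library of mouse 8D (288 against 317 to 329 CPM). Mbl1 was high in the FR>FFPE Con library of mouse 8A (171 against 140 to 150 CPM), and Mbl2 in its FFPE Con library (134 against 96.3 to 101 CPM). What set these libraries apart was not tested.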

How the results depend on the processing

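The falls in FFPE, the falls of the C1q chains, Serpinc1 and Kng1 in each embedded preparation and the PB rises of F10, F7, Masp1, Serpind1 and F13b in FFPE and FR>OH kept their direction and call under every scaling, test and filter tried. Counts of members called rested on scaling, and per gene the alternatives TMM, total reads, DESeq2 and limma turned the direction of 2, 4, 2 and 4 of the 45 named results. Higher members went from 1, 2 and 2 (FFPE, FR>FFPE and FR>OH) to 0 in each under TMM, total reads, DESeq2 and limma, and to 1 in FR>FFPE with no filter. Lower members in FR>FFPE were 33 per total read, 31 with DESeq2 and 33 with limma (20 as reported), and in FR>OH 16 with TMM, 22 per total read, 17 with DESeq2 and 22 with limma (10). Over all genes the lower calls in FR>FFPE were 2376, 2130 and 2284 in that order (661). In FR>OH they were 1923, 2771, 2050 and 2630 (805). For FFPE against FR>FFPE, 3 were lower with TMM and DESeq2 and 38 per total read and with limma (7), and 1 was higher with TMM and DESeq2 (0). Over all genes 713 were lower with TMM, 770 with DESeq2, 8735 per total read and 8719 with limma (762). Higher genes numbered 541 with TMM and 576 with DESeq2 (331). Proz turned to −0.60 per total read and −0.60 with limma in FFPE, to −0.12, −0.20, −0.12 and −0.20 with TMM, total reads, DESeq2 and limma in FR>FFPE, and to −0.10 per total read and −0.10 with limma in FR>OH. Masp2 in FR>FFPE turned to −0.15, −0.22, −0.15 and −0.23 in that order. In these cases the scaling itself moves every gene of a comparison together.

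With the mouse as a block (pairing by animal), 2 members were higher in FFPE, 6 higher and 21 lower in FR>OH, and 1 higher and 26 lower in FFPE against FR>FFPE. The counts over all genes in these fits are given above. The block turned or removed no named call. With the title tag as a term, 14 were lower in FFPE, 0 higher and 0 lower for PB in FR, and 1 lower for PB in FFPE. The tag was not fitted in comparisons with FR>FFPE and FR>OH.

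For PB, lower members numbered 1 with limma in FR, and 4 there without mouse 21C. In FFPE they were 1 with TMM, 1 per total read and 0 with limma. In FR>FFPE they were 1 per total read, 4 with DESeq2 and 0 with limma, and in FR>OH 0 per total read, 4 with DESeq2 and 0 with limma, where 2 were reported in each. Higher members in FR>FFPE were 1 with TMM and 2 with DESeq2 (6), and in FR>OH 8 per total read (5). Over all genes lower calls numbered 229 with limma in FR and 322 there without mouse 21C. In FFPE they were 396 with TMM, 131 per total read and 172 with limma. In FR>FFPE they were 100 per total read, 361 with DESeq2 and 81 with limma. In FR>OH they were 247 per total read, 884 with DESeq2 and 202 with limma. Higher calls over all genes were 485 with TMM and 550 with DESeq2 in FR>FFPE, and 1704 per total read in FR>OH. The share of lower calls was 14.3% with limma and 40.0% without mouse 21C in FR (25.0%), 66.7% with DESeq2 in FR>FFPE (25.0%) and 44.4% with DESeq2 in FR>OH (28.6%). The interaction counts stayed at 0 in all settings. Adding a 2-fold criterion left 3 lower members in FFPE and 0 in every other mouse count. In rat liver FFPE 17 members were called per total count (26), and leaving out each AML12 library in turn gave 1 to 1 called. Apart from the scalings, the cause of these moves was not tested. Shallow libraries limit rat FFPE liver and AML12, where several members rest on fewer than 50 counts.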
